A study of Mus musculus with 2 samples.

Results

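The keratin genes were followed in cochlear RNA of mice 3 hours after a noise exposure. Every non-control probe whose gene name on the array was Krt followed by digits was taken, and the keratin-associated proteins (Krtap) were left out. This gave 68 probes for 52 genes, of 37067 genes named on the array. The noise sample was cochlear tissue of 7-week-old female C57BL/6 mice that had been exposed to intense noise for 2 hours and were dissected 3 hours later. The baseline sample was cochlear tissue of 7-week-old female C57BL/6 mice with no noise exposure. C57BL/6 is an inbred laboratory strain, and the labels name no transgene, allele or drug in either group. Total RNA was measured on 1-colour Agilent arrays with 1 array per group. The labels used here do not give the number of mice behind each sample, so pooling is unknown. There was no replicate, no difference was tested across animals, and no p-value was computed.

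Keratins are the intermediate filament proteins of epithelial cells. Each filament is built from pairs of an acidic type I keratin and a basic type II keratin, so a cell makes at least 1 gene of each type. Single-layered (simple) epithelia, such as the lining of the cochlear duct, are known for Krt8 and Krt18. The basal layer of stratified epithelia is known for Krt5, Krt14 and Krt15, the upper layers for Krt1 and Krt10, moist stratified mucosa for Krt4 and Krt13, and the hair shaft and its root sheath for sets of their own. The bone around the cochlea borders the middle ear, which carries its own mucosa, and skin of the ear canal lies close by.

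The values below are the scanner software's processed signal, in linear scanner units that depend on the probe, so that signals of different probes are not set against each other. A log2 ratio is noise minus baseline after each array was scaled to its own 75th percentile, which was 316 after noise and 278 at baseline. A probe counted as measured where it was flagged well above background in both samples, and a gene took the median log2 ratio of its measured probes. In place of a test, a size rule of 2-fold was used. Between measured probes of the same gene the SD of the log2 ratio was 0.27, from 9348 genes, and the scanner's own error model gave standard errors (SE) of 0.20 to 0.40 for the log2 ratios of measured keratin probes. Of the 33 measured keratin probes, 10 had a log2 ratio more than 2 SE from 0. The share over all 41647 measured probes was not computed, so this count is not read as a keratin trait. The SD and SE describe technical variation and not the variation between animals.

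The tissue label was checked against 20 cochlear genes. All 20 were measured, with a summed signal (before scaling, as in all sums below) of 63132 after noise and 44726 at baseline, and the median log2 ratio was 0.28, with 16 genes above 0 and 4 below. Of these genes only Pou3f4, a transcription factor of the mesenchyme around the cochlear duct, passed 2-fold, with signals of 20.8 after noise and 42.6 at baseline (log2 ratio -1.22). In bulk tissue, fewer cells of a type and less RNA per cell cannot be told apart, and this applies to every keratin value below.

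Keratin RNA was found in both cochlear samples, and the part of the family that was found differed between classes. Of the 52 genes, 28 (53.8%) were measured on both arrays, against 71.6% of all genes named on the array (26528 of 37067). All 6 simple keratins were measured, 14 of 21 stratified keratins and 6 of 23 hair and root sheath keratins. The remaining pair, Krt42 and Krt222, were also measured. Krt84 was well above background after noise only, Krt13 and Krt71 at baseline only, and 21 genes in neither sample. Of these 21, 15 were hair and root sheath keratins and 6 were stratified keratins, namely Krt4, Krt12, Krt24, Krt76, Krt77 and Krt78. The 31 keratin probes well above background in neither sample had signals of 0.895 to 4.74 after noise and 0.862 to 5.06 at baseline. By type, 14 of 28 type I and 14 of 24 type II genes were measured.

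**Figure D1:**
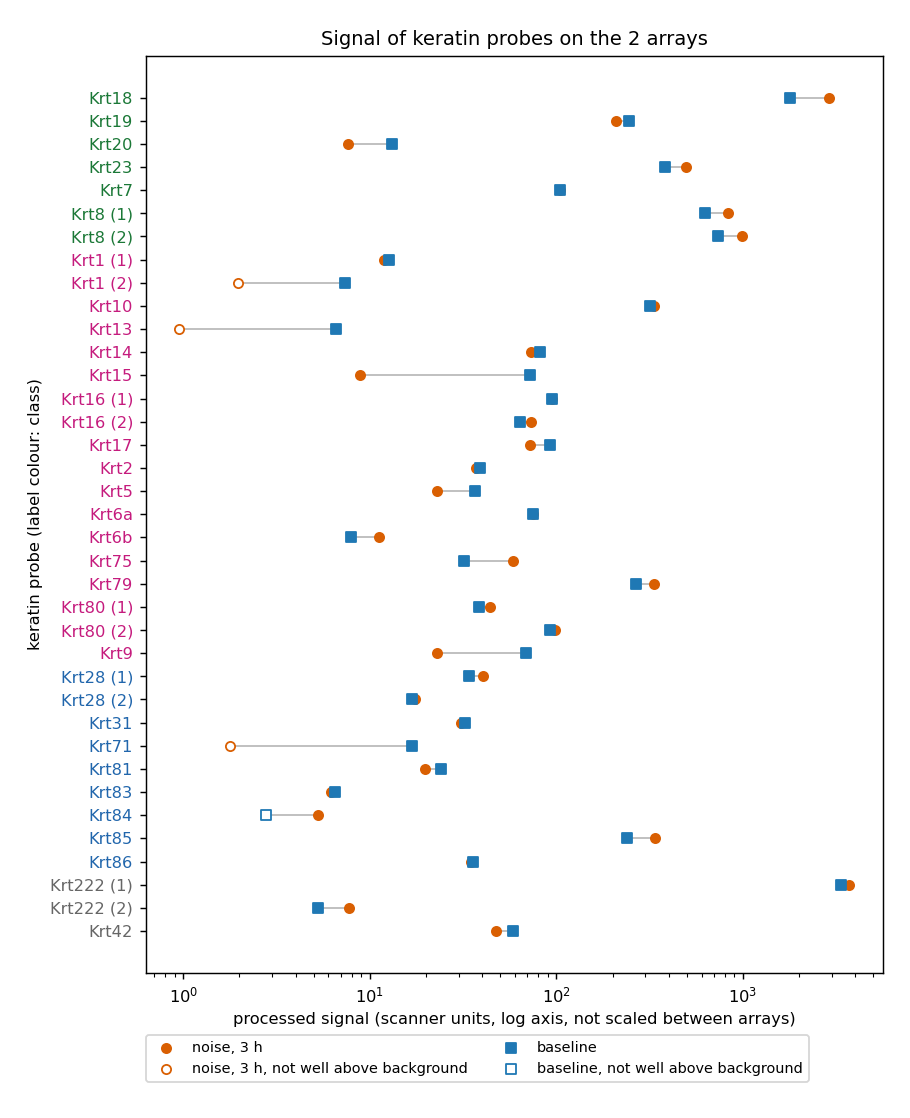
Processed signal (log axis, scanner units, not scaled between arrays) of the 37 keratin probes that were well above background on at least 1 array, with circles for noise and squares for baseline, open where not well above background. A circle hidden by its square has nearly the same signal. Long gaps are seen at Krt15, Krt9, Krt71, Krt13 and the second Krt1 probe, in each of which the noise signal is the lower one, and most other pairs lie close together.

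Of the 28 measured genes none was at least 2-fold higher in the noise cochlea and 2 were at least 2-fold lower, Krt15 and Krt9. Over all 26528 measured genes, 0.611% were at least 2-fold higher (162 genes) and 1.25% at least 2-fold lower (332 genes). With the arrays scaled to the spike-in controls instead, an alternative chosen after seeing the data, that split was 301 higher and 217 lower, and the keratin counts stayed at 0 and 2. The median log2 ratio of the measured keratins was -0.20 (-3.22 to 0.70), against -0.01 for all genes. On the spike-in scale these medians were -0.03 and 0.16. The gap between them, -0.19, is the same on both scales by construction, because such scaling shifts every gene alike. Settings that can change the gap gave -0.09 (normexp background), -0.10 (no filter on dim probes) and -0.17 (quantile normalization, and a stricter filter on dim probes). Of the 28 keratins, 20 lay below 0 (71.4%) and 8 above, against 52.5% of all measured genes below 0. Spike-in scaling, which raised the median of all genes by 0.17, left 16 below 0, with Krt10, Krt16, Krt28 and Krt80 turning positive. The number of keratins below the median of all genes, 20, cannot change under such a shift. On the main scale 23 of the 28 keratins lay within 1.5-fold of the baseline value, and 24403 of all 26528 measured genes did. Many of the keratins were dim. Among all genes with a signal under 100 on both arrays, 0.577% were 2-fold higher and 1.75% 2-fold lower, and 58.0% had a ratio below 0. The 19 keratins under this limit held both lower genes, and 17 of the 19 lay below 0, with a median of -0.26 against -0.06 for all such genes.

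**Figure D2:**
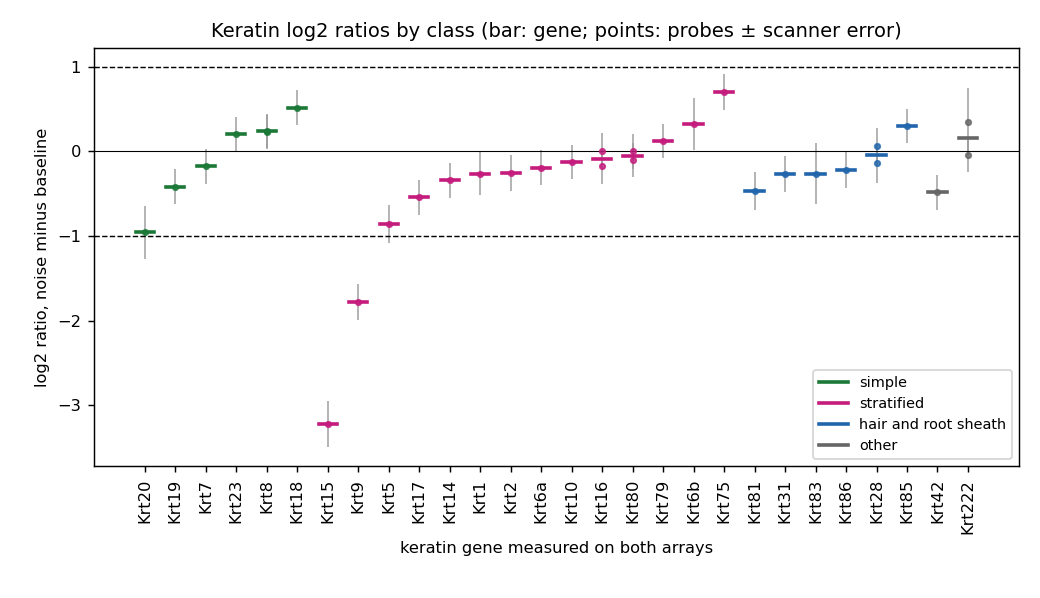
Log2 ratio (noise minus baseline, each array scaled to its 75th percentile) of the 28 keratin genes measured on both arrays, grouped and coloured by class. Bars are gene values, points are measured probes with the scanner's SE as error bars, and dashed lines mark 2-fold. Krt15 (-3.22) and Krt9 (-1.77) are the genes past a dashed line, while Krt20 (-0.96) and Krt5 (-0.86) lie just inside it.

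The simple keratins were all present and showed no common direction. Their median log2 ratio was 0.01, with 3 genes above 0 and 3 below, and none passed 2-fold. Krt18, the type I member of the pair that defines simple epithelia, had a signal of 2905 after noise and 1786 at baseline (log2 ratio 0.52, 1.43-fold higher). Its type II partner Krt8 was read by 2 probes lying close together, which gave 985 and 834 after noise and 733 and 625 at baseline. Both Krt8 probes leaned the same way as Krt18, with a gene log2 ratio of 0.24. Krt23, a type I keratin of simple epithelia, had 498 after noise and 380 at baseline (0.20).

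The other simple keratins did not follow this pair. Krt7, a type II keratin of ducts and glandular linings, had 105 on both arrays, which after scaling was a log2 ratio of -0.18. Krt19, a short type I keratin that lacks most of the tail domain, had 208 after noise and 245 at baseline (-0.41). Krt20, known from gut epithelium, urothelium and Merkel cells, had 7.68 after noise and 13.1 at baseline (-0.96, 1.94-fold lower). Krt20 was close to background on both arrays, and its SE was 0.31. The log2 ratios of Krt18, Krt19 and Krt20 were larger in size than the SD of 0.27 between probes of the same gene, and those of Krt7, Krt8 and Krt23 were smaller. With 1 array per group there was no spread between animals to set them against.

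The stratified keratins held both genes past 2-fold, and both were lower in the noise cochlea. The class had a median log2 ratio of -0.22, with 3 genes above 0 and 11 below. Krt15, a type I keratin of basal keratinocytes and of the hair follicle bulge, had a signal of 8.83 after noise and 72.5 at baseline. This was a log2 ratio of -3.22 (SE 0.28), or 9.32-fold lower, and Krt15 held place 8 from the bottom among the 26528 measured genes. Krt15 was read by 1 probe, on the minus strand at chr11:99993331-99993390 of mm9, so no other probe bears on the value. The probe is shown because the largest keratin difference rests on it alone. Its reading frame runs without interruption up to a stop codon in the last 3 bases, marked in capitals, so that it covers the end of the Krt15 coding sequence.
Krt15: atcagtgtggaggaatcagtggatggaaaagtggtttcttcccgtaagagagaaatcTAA

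Krt9, a type I keratin of the thick skin of palms and soles, had a signal of 22.8 after noise and 68.7 at baseline. The log2 ratio was -1.77 (SE 0.21), or 3.42-fold lower, place 54 from the bottom of all measured genes. It too was read by 1 probe, at chr11:100048095-100048154 of mm9 on the minus strand. The Krt9 call depends on the background and offset used, and the Krt15 call on the filter for dim probes. With a normexp background and an offset of 50, in place of the software's own subtraction, the log2 ratios were -1.09 for Krt15 and -0.88 for Krt9. This left Krt15 as the only keratin past 2-fold. The offset is added to every signal and by construction shrinks the ratios of dim probes. Where the signal had to reach 3 times the lowest well-above-background signal on both arrays, Krt15 was no longer measured and Krt9 was the only one.

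The other basal keratins were lower by smaller amounts. Krt5, the type II basal keratin, had 23.0 after noise and 36.7 at baseline (log2 ratio -0.86, 1.81-fold lower). Krt14, its usual type I partner, had 73.1 after noise and 81.5 at baseline (-0.34). With an SE of 0.21 the Krt14 ratio was within 2 SE of 0, and on the spike-in scale it was -0.17. Under the normexp background Krt5 was at -0.37 and Krt14 at -0.25. All 3 basal keratins were thus lower in the noise cochlea, by 9.32-fold for Krt15, 1.81-fold for Krt5 and 1.27-fold for Krt14. The markers of the stratified basal layer did not share this direction: 10 of 12 were measured and none passed 2-fold in either direction. Their median log2 ratio was -0.08, with 5 above 0 and 5 below, and the signals summed over the list were 6301 after noise and 4730 at baseline. Dsg3 and Bnc1 were well above background on neither array. Aqp3, a water and glycerol channel of basal keratinocytes, had 30.3 after noise and 47.6 at baseline (-0.84), while Sfn, the epithelial 14-3-3 protein stratifin, had 1044 after noise and 584 at baseline (0.65). Whether the amount of stratified epithelium in the dissected tissue had a part in the Krt15 and Krt9 values was not tested.

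The keratins of the upper epidermal layers differed little or could be read only in part. Krt10, the type I keratin of suprabasal cells, had 332 after noise and 318 at baseline (-0.12). Its partner Krt1 gave different answers from its 2 probes. The probe named by a RefSeq transcript had 1.97 after noise, not well above background, and 7.32 at baseline, at least 1.81-fold lower in the noise cochlea. The measured probe had 11.9 after noise and 12.6 at baseline (-0.26), but it lies on the strand opposite to the gene. It may read another transcript, so its value is not taken as a Krt1 level. Through this probe alone, Krt1 is still counted among the measured stratified keratins and among those below 0. Without opposite-strand probes and the unmapped Krt85 probe, 26 keratins were measured, 19 below 0 and 7 above. The stratified median was then -0.19. Krt2, a type II keratin of the uppermost living layers, had 36.9 after noise and 38.9 at baseline (-0.26).

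Of the wound and appendage keratins only Krt75 lay outside 1.5-fold. Krt6a, Krt16 and Krt6b are switched on in keratinocytes after injury. Krt6a had 74.8 after noise and 75.2 at baseline (-0.19), and Krt6b had 11.2 after noise and 7.91 at baseline (0.32). The Krt16 probes had 94.6 and 72.7 after noise and 94.2 and 63.6 at baseline, a gene log2 ratio of -0.08. Thus no injury-type keratin passed 2-fold. Krt17, a type I keratin of appendages and activated keratinocytes, had 72.0 after noise and 92.1 at baseline (-0.54). Krt75, a type II keratin of the companion layer of the hair follicle, had the highest ratio of the family, with 58.8 after noise and 31.8 at baseline (0.70, 1.63-fold higher). Its other probe was well above background on neither array. Krt79, of sebaceous ducts and the upper hair follicle, had 333 after noise and 269 at baseline (0.13), from 1 measured probe. Krt80, a type II keratin found in many epithelia, had 43.8 and 97.8 after noise and 38.6 and 92.3 at baseline, a gene log2 ratio of -0.05, while its remaining probe passed background in neither sample.

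The keratins of moist stratified mucosa were at or near background. Krt13, a type I keratin of such mucosa, was read by 2 minus-strand probes, and their sequences are shown because 1 of them gave a signal on 1 array while the other did not on either. The first lies at chr11:99980412-99980471 of mm9, and the second spans chr11:99980710-99980948, wider than its 60 bases. Both have an open reading frame throughout.
Krt13, first probe: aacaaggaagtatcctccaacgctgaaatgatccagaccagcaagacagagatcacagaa
Krt13, second probe: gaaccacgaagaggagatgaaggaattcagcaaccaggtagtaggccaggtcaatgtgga

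The first Krt13 probe had 0.949 after noise, not well above background, and 6.58 at baseline, at least 1.63-fold lower in the noise cochlea. The second had 1.03 after noise and 1.78 at baseline and was well above background on neither. Krt4, the type II partner of Krt13, had 2.16 after noise and 4.74 at baseline, and was also well above background on neither. An at-least fold sets the brighter level against the higher of the dim level and the lowest signal well above background, which was 4.58 after noise and 4.35 at baseline. Of the 547 genes that passed background at baseline only, 17.7% passed 2-fold lower as such a bound, and Krt13 was not among them.

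Markers of the middle ear and airway lining, the mucosa nearest to the cochlea, were all measured, 16 of 16. Their median log2 ratio was -0.33, with 4 above 0 and 12 below. The summed signals before scaling were 92589 after noise and 89038 at baseline. These sums are not corrected for the brighter noise array, whose 75th percentile was 316 against 278 at baseline. Of these 16, 2 passed 2-fold, both lower in the noise cochlea. Bpifb1, a secreted protein of airway goblet cells and glands, had 22.5 after noise and 727 at baseline (log2 ratio -5.20, 36.6-fold lower). Sftpd, a secreted collectin of airway linings, had 37.6 after noise and 72.4 at baseline (-1.13). Stratified keratins (-0.22) and this list thus both had medians below that of all genes (-0.01). The same held for hair and root sheath keratins (-0.24), basal layer markers (-0.08), late epidermal genes (-0.08) and Krtap genes (-0.05). Above it lay the simple keratins (0.01), simple epithelial markers (0.22), anchoring proteins (0.29), other intermediate filaments (0.01) and cochlear genes (0.28). Whether mucosa carried along in the dissection had a part in the keratin values was not tested.

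**Figure D3:**
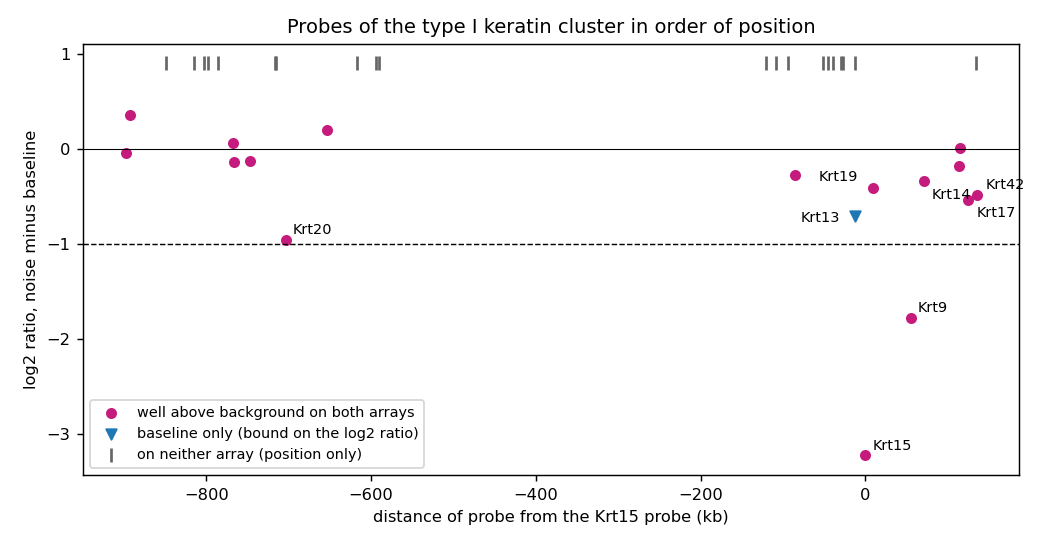
Log2 ratio (noise minus baseline) of the probes of the type I keratin cluster against their distance from the Krt15 probe in kilobases. Circles are probes measured on both arrays, the triangle is the bound for Krt13, short bars at the top give only the position of probes well above background on neither array, and the dashed line marks 2-fold lower. Krt15 and Krt9 lie below the line, and Krt19, between them at -0.41, lies above it.

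Among genes measured on both arrays, those past 2-fold are both type I keratins and lie in the same gene cluster. All type I keratins here except Krt18 lie in that cluster, so this closeness is largely given by the family's layout. Of the 68 probes, 37 lie on chromosome 11, in the type I cluster, and 30 on chromosome 15, in the type II cluster with Krt18 at its edge. The Krt85 probe has no position on the array design. The Krt13, Krt15, Krt19, Krt9 and Krt14 probes follow one another, and Krt9 lies 54.8 kb from Krt15. Between them Krt19, 9.06 kb from Krt15, had a log2 ratio of -0.41, and Krt14, 71.2 kb away, had -0.34. The type I genes had a median of -0.30, with 11 of 14 below 0, and the type II genes one of -0.18, with 9 of 14 below 0. Of the genes measured on both arrays, 2 type I genes and no type II gene passed 2-fold. Krt71, a type II gene on chromosome 15 seen at baseline only, was at least 4.16-fold lower in the noise cochlea.

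Hair and root sheath keratins were mostly not well above background, and those measured were close to 0. The 6 measured genes had log2 ratios from -0.47 to 0.30 with a median of -0.24, 1 above 0 and 5 below, and none passed 2-fold. Krt85, a type II keratin of the hair matrix and cortex, had 336 after noise and 240 at baseline (0.30). Krt81, also of the hair cortex, had 19.7 after noise and 24.0 at baseline (-0.47). The gene that the array calls Krt83, and whose transcript RefSeq now names Krt87, had 6.20 after noise and 6.54 at baseline (-0.26). Krt81 and Krt83 are type II hair keratins of similar sequence, so their probes are shown. The Krt81 probe lies at chr15:101290583-101290642 and the Krt83 probe at chr15:101263556-101263615 of mm9, both on the minus strand. Capitals mark the 24 bases that the Krt81 and Krt83 probes share.
Krt81: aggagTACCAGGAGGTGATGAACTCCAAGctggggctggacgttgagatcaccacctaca
Krt83: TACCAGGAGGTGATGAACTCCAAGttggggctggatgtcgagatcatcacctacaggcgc

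The Krt81 and Krt83 probes were identical at 51 of 55 aligned bases (92.7%). Over the 2261 pairs of probes for different keratin genes, 4 shared a run of 12 or more bases, and the median longest run was 6. These pairs were Krt81 with Krt83, each of these with Krt85, and Krt13, second probe, with Krt25, which share 13 bases. The signals of the Krt81, Krt83 and Krt85 probes could therefore include each other's transcripts, and the values of these genes, the positive ratio of Krt85 included, are uncertain for that reason.

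The remaining hair and root sheath keratins were dim. Krt86, a type II hair keratin, had 34.9 after noise and 35.8 at baseline (-0.22), and Krt31, a type I hair keratin, had 30.7 after noise and 32.6 at baseline (-0.27). The probes for Krt28, of the inner root sheath, had 40.6 and 17.4 after noise and 34.2 and 16.9 at baseline, a gene log2 ratio of -0.04. These 3 genes lay within 1.5-fold. Krt71, a type II keratin of the inner root sheath, had 1.79 after noise, not well above background, and 16.8 at baseline, at least 4.16-fold lower in the noise cochlea. Krt71 was thus among the 17.7% of baseline-only genes whose bound passed 2-fold. Krt84, a type II hair keratin, had 5.30 after noise and 2.78 at baseline, the second not well above background, at least 1.07-fold higher. Of the 624 genes seen after noise only, 5.77% passed 2-fold higher as a bound, and Krt84 did not.

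The keratin-associated proteins form the matrix in which hair keratins are embedded. Of 55 Krtap genes 27 were measured and none passed 2-fold, with a median log2 ratio of -0.05, 10 above 0 and 17 below, and summed signals of 11657 after noise and 10133 at baseline. The extremes were Krtap16-3, with 55.4 after noise and 32.3 at baseline (0.60), and Krtap11-1, with 4.62 after noise and 5.87 at baseline (-0.53). Another 26 Krtap genes were well above background on neither array.

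Krt222 and Krt42 fall outside these classes. Krt222, a keratin-like gene at the end of the type I cluster, was read by 2 probes. The first had 3713 after noise and 3358 at baseline (log2 ratio -0.04), and the second had 7.69 after noise and 5.30 at baseline (0.35). Their ratios differed by more than the usual SD between probes, and the second was near background, with an SE of 0.40. Krt42, a type I keratin of the mouse, had 47.4 after noise and 58.3 at baseline (-0.48) from 1 measured probe.

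**Figure D4:**
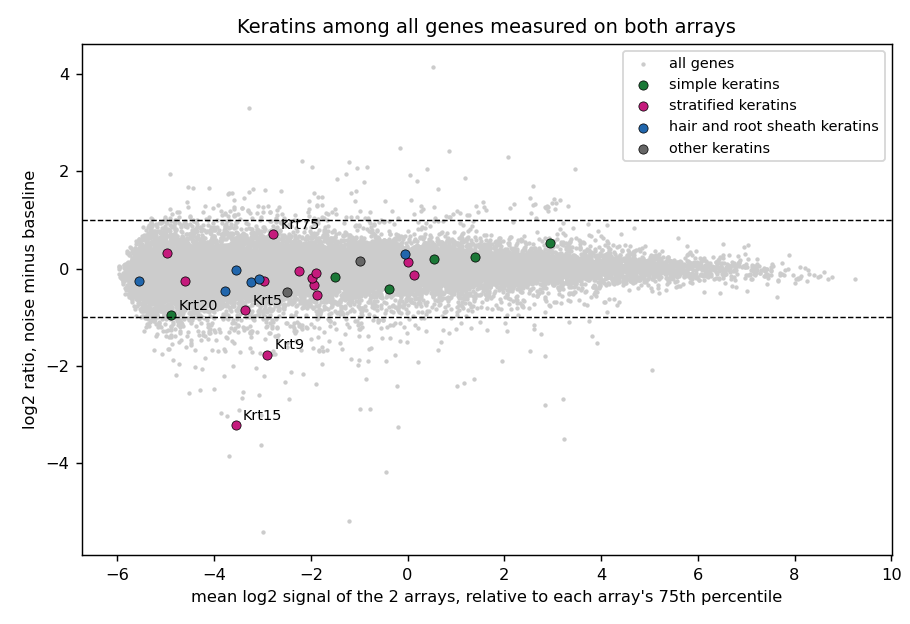
Log2 ratio (noise minus baseline) against the mean log2 signal of both arrays, relative to each array's 75th percentile, for the 26528 genes measured on both arrays (grey) and the 28 measured keratins (coloured by class), with dashed lines at 2-fold. Krt15 and Krt9 lie under the lower dashed line on the dim side, and the other keratins lie within the grey cloud between the dashed lines.

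Genes that mark or serve keratin-bearing cells were compared with the keratins. The simple epithelial markers were all measured (15 of 15), none passed 2-fold, and 13 lay above 0 with a median log2 ratio of 0.22. Their summed signals were 4929 after noise and 3741 at baseline. Epcam, an adhesion molecule of simple epithelia, had 316 after noise and 143 at baseline (0.96). Krt8, Krt18 and Krt23 leaned the same way as these markers, while Krt7, Krt19 and Krt20 did not.

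The anchoring proteins that tie keratin filaments to desmosomes and hemidesmosomes were measured in full (12 of 12). None passed 2-fold, 10 lay above 0, the median was 0.29 and the summed signals were 4810 after noise and 4139 at baseline. Pkp3, a desmosomal plakophilin, had 954 after noise and 1353 at baseline (-0.69), and Ppl, the linker periplakin, had 172 after noise and 103 at baseline (0.55). The median of the keratins themselves, -0.20, lay on the other side of 0.

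The late epidermal and cornified envelope genes were found in part: 11 of 21 on the array were measured and 10, among them Ivl, Flg2 and Hrnr, were well above background on neither array. The median log2 ratio was -0.08, with 4 above 0 and 7 below, and the summed signals were 829 after noise and 717 at baseline. Sprr1a passed 2-fold, with 89.2 after noise and 25.8 at baseline (log2 ratio 1.60, 3.04-fold higher). Sprr1a is a precursor of the cornified envelope and is also known as a gene induced in injured peripheral neurons. Sprr1b and Sprr3, of the same family, were well above background on neither array.

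The intermediate filaments of other cell types served as a comparison within the superfamily. All 16 were measured, none passed 2-fold, and the median was 0.01, with 8 above 0 and 8 below. Their summed signals before scaling, not corrected for the brighter noise array, were 37814 after noise and 34732 at baseline. Sync, a muscle filament-associated protein, had 23.6 after noise and 32.9 at baseline (-0.67). Gfap, the filament of astrocytes and some other glia, had 612 after noise and 778 at baseline (-0.53).

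**Figure D5:**
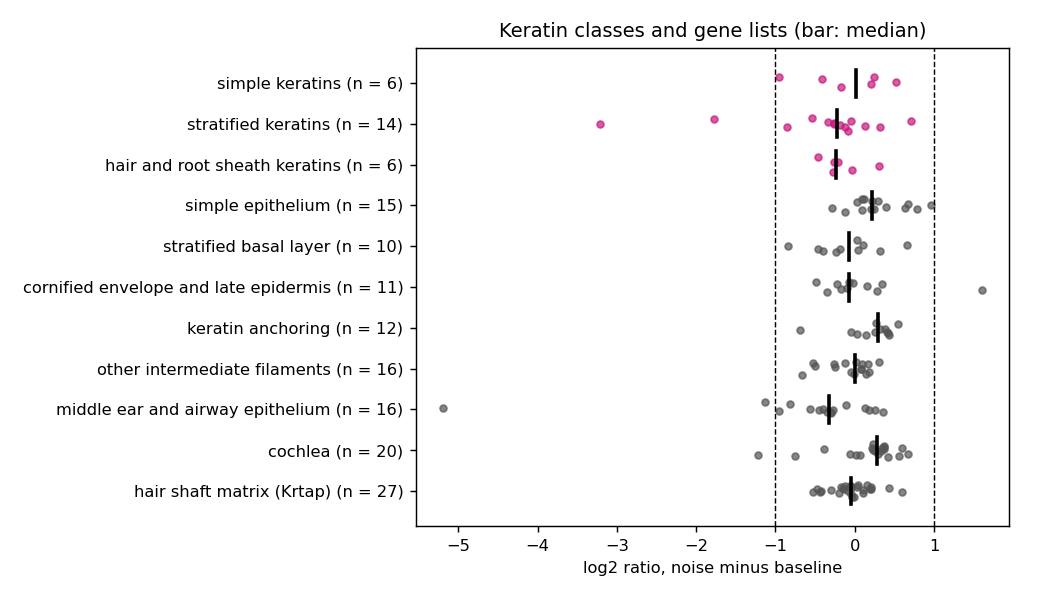
Log2 ratio (noise minus baseline) of measured genes in 3 keratin classes (coloured) and 8 gene lists (grey), with n the number of measured genes, black bars the medians and dashed lines at 2-fold. The medians run from -0.33 for the middle ear and airway list to 0.29 for keratin anchoring. Points beyond a dashed line are Krt15 and Krt9 among the keratins, and Sprr1a, Bpifb1, Sftpd and Pou3f4 among the lists.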

How the data were processed

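The scanner files deposited by the authors give an intensity per spot, read, per the file headers, with Agilent Feature Extraction 11.5.1.1, which subtracts a background from each spot. Slide and scan were the same for both arrays, per the file headers. A table of log2 values was also deposited: each column equalled log2 of the processed signal, floored at 1, with -8.30 (noise) or -8.12 (baseline) added, with column medians of -2.81 (noise) and -2.79 (baseline) and no centring per gene, as worked out from the values.

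Outlier flags removed 77 spots (noise) and 58 spots (baseline), none of them for a keratin. Of 56590 probes on both arrays, 75.3% (noise) and 75.2% (baseline) were well above background, and 41647 were on both. No keratin spot was saturated. Repeat spots were averaged as log2 values and scaled to each array's 75th percentile. Probe positions are those of mm9 in the files. RefSeq (GRCm38.p6) held the transcript of 58 of the 68 keratin probes and gave another symbol for 1. Probe strands were compared with the gene's strand for 50 probes, and 2 ran against it. Probe sequences were read from the scanner files.

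The keratins, their classes and the marker lists were chosen with earlier results of these data known. Every keratin gene well above background on at least 1 array was named. From each list the members past 2-fold were named, at most 6, or otherwise the 2 with the largest absolute log2 ratio. A list gene named by this rule and some probe sequences are not reported here. Other named list members and keratins not well above background were chosen after their values were seen. Precision is limited by the number of arrays, 1 per group. The gene step was run on simulated data with changes well past 2-fold and less noise than was found between probes here. That run checks the code only and does not bear on calls near 2-fold. Alternatives covered background (normexp, offset 50, limma 3.58.1, R 4.3.3), scaling, filter, probe choice and the deposited table. Other steps used Python 3.11.15.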

Additional observations from a re-analysis of the deposited data

How the results depend on the processing

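Median, quantile and spike-in scaling, the brightest probe per gene, the deposited value table, names without a letter suffix, and leaving out opposite-strand and unmapped probes kept the counts at 0 keratins 2-fold higher and 2 lower. Spike-in scaling and leaving out those probes were chosen after seeing the data. The count of lower genes was 1 with a normexp background (Krt15) and 1 with a stricter filter on dim probes (Krt9). With no filter on dim probes all 52 genes entered, 1 was higher (Krt77) and 8 were lower (Krt1, Krt4, Krt9, Krt13, Krt15, Krt34, Krt71 and Krt72); the added genes had no probe measured on both arrays, except Krt1. The normexp setting adds an offset of 50 to every signal, which by construction draws ratios of dim probes toward 0. Over all measured genes it left 56 at least 2-fold higher and 74 lower. The parts of the offset and of the background model in the Krt9 change were not separated. The stricter filter removed Krt15 by its construction. Of 271 gene values under these alternatives, 263 moved by less than the SD of 0.27 between probes and 8 by more: under normexp Krt15, Krt9, Krt5 (-0.37), Krt20 (-0.29), Krt75 (0.21) and Krt6b (-0.05), and with no filter Krt1 (-1.17) and Krt75 (0.36). The 263 are not a measure of stability, because many of these values could hardly move. The deposited table repeats the processed signal, and leaving out names or probes only removed genes. Median and spike-in scaling shift all genes alike, by 0.03 and 0.17. Under normexp, which changes the background model, 6 of 28 genes moved by more than this SD. The class medians moved by less than this SD, and of the 8 only Krt6b changed sign, within 2-fold on both settings. Krt222 and Krt28, both close to 0, also changed sign under some alternatives, and Krt10, Krt16 and Krt80 did so under spike-in scaling. Signal over background limits what can be said of Krt15, Krt20, Krt6b and Krt83, which lay near the lowest signal well above background on the noise array. No paired analysis was possible because the design has a single array per condition, and no replicate could be left out.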
